A study of Canis lupus familiaris with 81 samples.

Results

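A list of 100 probes was described, taken from the 2010 probes measured in canine osteosarcoma: those whose level differed most from tumour to tumour among probes that the tumours, on average, did not carry far above normal tissue. Levels were log2 CPM (counts scaled to a common library size) with TMM scaling, a per-library correction for a few very abundant probes, and a prior count of 2. They were averaged over the regions of each of 24 tumours and of each of the 3 control tissues. Of the 2010 probes, 1900 had a mean over tumours less than 1 log2 unit above at least 1 tissue mean. In 1734 the highest tissue mean was less than 1 log2 unit above the next, and 1636 met both conditions. The 100 with the highest standard deviation (SD) over tumours were kept, which is 4.98% of all probes. A set of 7 probes was left out by name, and none of them met both conditions. The spread over tumours and the standing against the tissues therefore chose these probes, and both are given below as descriptions with no test.

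Osteosarcoma is a malignant tumour whose cells lay down bone matrix, and the appendicular form arises in the long bones of the limbs, where it is a common cancer of large dogs. Its tissue mixes tumour cells and matrix with vessels, bone-resorbing osteoclasts, macrophages and other immune cells, and that mixture is known to vary between tumours and between places in one tumour. The GeoMx Digital Spatial Profiler releases DNA tags from probes hybridised to a chosen region of a tissue section and counts them by sequencing. A region holds many cells, so fewer cells of a type and less RNA per cell cannot be told apart in any value below. The files identify probes by number, and no gene was assigned to a probe here. For that reason no role is given for any of them, and neither the labelled tumour nor the control tissues were checked against marker genes.

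The tumours came from pet dogs enrolled in a clinical trial, and pieces of them were placed on 2 tissue microarrays. Tumour numbers in the labels were taken as animals. Of the 68 tumour regions, 34 lay on each array: 10 tumours had 2 regions on each array and 14 had 1. The control tissues were kidney, spleen and liver, with 4 regions each, which may come from 1 animal each. Groups by disease-free interval, which the study design names, are not attached to samples in the labels and were not compared. The labels do not say how regions were placed, or whether the arrays hold separate pieces of a tumour.

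Total counts ran from 17711 to 1069118 in the tumour regions, with a median of 211967, and from 92126 to 396058 in the control regions. The TMM factors ran from 0.252 to 1.80 in tumour regions (median 0.977), where the 10 most abundant probes held 17.4% to 81.7% of the counts. In control regions they were higher, at 1.78 to 1.88 (kidney), 2.03 to 2.20 (spleen) and 1.69 to 2.06 (liver). A higher factor lowers a level, so TMM scaling raised most tumour regions relative to the tissues. Counts of tumours above or below the control regions are with TMM scaling unless another is named. The 100 listed probes held 2.11% to 12.6% of a tumour region's counts, with a median of 6.87%. In the control regions this share was 8.08% to 8.83% (kidney), 10.3% to 10.7% (spleen) and 5.22% to 5.68% (liver). In the no-template control, 2 of them had a count, 3 in all, of a library total of 74.

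Across the list, the SD over tumours ran from 0.79 to 1.51 with a median of 0.91 log2 units, against a median of 0.48 over all 2010 probes. Between its lowest and its highest tumour a listed probe differed 6.12-fold to 53.02-fold, with a median of 12.2-fold. Their mean levels over tumours ran from 6.10 to 12.59 log2 CPM, with a median of 7.99 against 7.13 over all probes. Most were therefore of moderate abundance, with a median of 39.5 counts in a tumour region against 20 for all probes. At their lower ends many probes were as low as the least abundant ones measured: in 43 of the 100 the lowest tumour was below 6.28 log2 CPM, the mean of the 503 least abundant probes, and 19 had a count of 0 in some tumour region. Neither count is set beside all probes, so nothing particular to the list is read from them. No assay background was measured here.

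**Figure D1:**
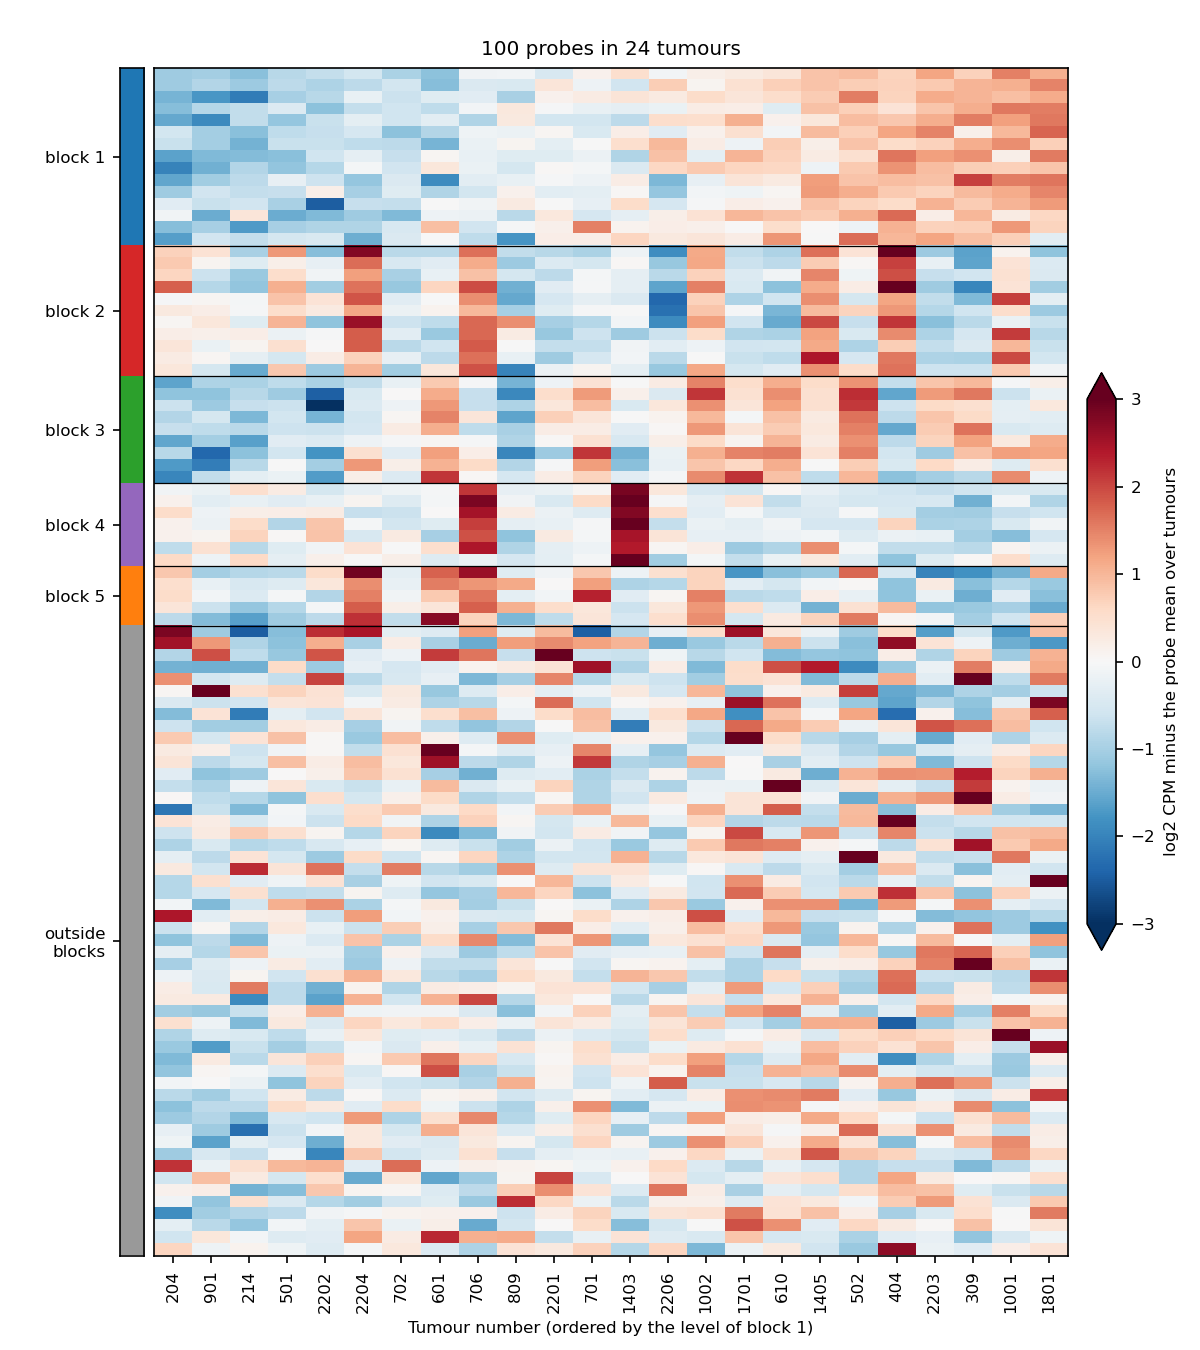
Level of each of the 100 probes (rows) in each of 24 tumours (columns), as log2 CPM minus the probe's own mean over tumours, with the colour scale ending at 3 on either side. Rows are grouped by co-varying block (15, 11, 9, 7 and 5 probes, then the other 53), and the columns run from the lowest level of block 1 (tumour 204) to the highest (tumour 1801); the rows of block 4 stand out in tumours 706 and 1403, except for RTS0112470, which does so in tumour 1403 only.

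The probe of widest spread was RTS0113646, with an SD of 1.51. Its level ran from 7.79 log2 CPM in tumour 214 over a median of 9.99 to 13.09 in tumour 204, a 39.6-fold range. In kidney its 4 regions read 9.57, 9.57, 9.55 and 9.82, in spleen 9.77, 9.80, 9.86 and 9.74, and in liver 7.43, 7.61, 7.59 and 7.46. Thus 15 of the 24 tumours lay above every control region and none below every one, and tumour 1701 (12.79) came close to the highest. The levels on the 2 arrays had a Pearson correlation of 0.96 over 24 tumours (Spearman 0.93), so both arrays gave nearly the same order of tumours.

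The next 3 by spread had other leading tumours. RTS0112798 ran from 5.78 in tumour 2206 over a median of 6.91 to 11.51 log2 CPM in tumour 404, the widest range of the list at 53.02-fold. RTS0112042 ran from 6.39 in tumour 309 over 8.05 to 11.67, also in tumour 404, and RTS0112900 from 5.77 in tumour 2203 over 7.54 to 10.66 in tumour 2204. In both RTS0112798 and RTS0112042 tumour 404 was more than 1 log2 unit above the next, and below it the levels came down gradually, with 9 and 10 tumours above every control region and 5 and 1 below. RTS0113129 ran from 6.78 in tumour 1801 over 8.09 to 11.17 log2 CPM in tumour 404, with tumour 204 close behind at 11.01. RTS0112908 ran from 7.06 in tumour 901 over 9.41 to 11.56 in tumour 701, and RTS0112195 from 6.06 in tumour 2202 over 8.41 to 10.71 in tumour 502. These 3 were spread over the whole range, with 12 to 15 tumours above every control region for each.

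RTS0113100 reached 10.10 log2 CPM in tumour 2204 from 5.64 in tumour 2206 (median 7.06), and RTS0112283 reached 10.53 in tumour 2201 from 6.25 in tumour 610 (median 6.93). RTS0113789 ran from 6.46 in tumour 502 over 8.30 to 10.89 in tumour 701. The leading tumour thus differed among the 10 probes of widest spread: tumour 404 led 3 of them, tumours 701 and 2204 led 2 each, and tumours 204, 502 and 2201 led 1 each. Over the whole list, tumour 404 was the highest of 24 for 13 probes, tumours 309 and 1801 for 11 each, and tumours 502 and 1001 for 8 each. Tumour 214 was the lowest for 14, tumours 204 and 309 for 9 each, and tumour 404 for 8. Tumours 309 and 404 thus marked both ends. The regions of tumours 204, 214 and 309 held 42767 to 119969 counts, against a median of 211967 over tumour regions. In tumour 404 the 10 most abundant probes held 69.4% of the counts, averaged over its regions. The part of depth and of these abundant probes was not tested.

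At the edge of the list the choice was close. RTS0113370 (SD 0.798) and RTS0113058 (SD 0.791) were the last probes inside, and RTS0112808 (SD 0.783) and RTS0113108 (SD 0.781) the first outside. RTS0112808 ran from 5.20 in tumour 2202 to 8.95 log2 CPM in tumour 610, a range as wide as that of many listed probes.

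Standing against the control tissues varied, within the bounds the choice set. The tissue with the highest mean was spleen for 40 probes, liver for 31 and kidney for 29. The mean over tumours lay above all 3 tissue means for 62 of the 100 listed probes, against 581 of all 2010. It lay below all 3 for 5 listed probes. The count above depends on the scaling: 30 listed probes lay above all 3 with upper-quartile factors and 2 with library size alone. The counts of 5, 30 and 2 have no share over all probes beside them. Nothing particular to the list is therefore read from them. RTS0113176 stood highest over its top tissue, with a tumour mean of 10.47 log2 CPM where kidney read 9.49, with 20 of 24 tumours above every control region. RTS0113129 (8.50 against 7.53 in liver) and RTS0113709 (7.64 against 6.71 in liver) came next. At the other end were RTS0112234 (7.08 against 9.95 in liver), RTS0111993 (11.13 against 13.08 in spleen) and RTS0113742 (11.00 against 12.61 in spleen). RTS0112234 and RTS0111993 had no tumour above every control region, while each had 14 below every one. For 64 of the 100 probes some tumours lay above all 12 control regions and others below all of them, which held for 836 of all 2010 probes (41.6%).

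The probes fell into groups that went up and down together over tumours. Average linkage on 1 minus the Pearson correlation, with a distance limit of 0.5, gave 5 blocks of at least 5 probes with 47 probes in all, 14 smaller clusters with 36 probes, and 17 single probes. Over the 4950 pairs of listed probes the median correlation was 0.05 and 10.1% exceeded 0.5, against 0.01 and 5.99% over all pairs of the 2010 probes. Since the blocks were drawn from these correlations, their height is a description, and a block is named by number only. Beside it stand correlations over the same 24 tumours taken between a probe on one array and another probe on the other, which share no library. The blocks were drawn from means over both arrays, so these correlations are a description too.

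Block 1 was the largest, with 15 probes. Its level, the mean log2 CPM of its probes, ran from 7.92 in tumour 204 over a median of 9.04 to 10.19 in tumour 1801. Tumours 1001 (10.10), 309 (10.07) and 2203 (10.00) were nearly as high, and tumours 901 (7.96) and 214 (8.07) nearly as low, so the tumours formed a gradual series. The 4 kidney regions lay between 8.36 and 8.57, the spleen regions between 8.21 and 8.46 and the liver regions between 7.80 and 8.04. With TMM scaling 16 tumours lay above every control region and none below, while upper-quartile factors gave 15 above and 6 below, and library size alone gave 8 and 7. The mean pairwise correlation was 0.72 ± 0.05 (jackknife SE, n = 24 tumours), and it was 0.67 across arrays.

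The probes most central to block 1 were RTS0112215, RTS0113034 and RTS0112654. RTS0112215 ran from 6.67 in tumour 214 over 7.95 to 9.44 log2 CPM in tumour 1001. RTS0113034 ran from 6.91 in tumour 601 over 8.16 to 9.68 in tumour 1801, and it had the smallest spread of the list between 2 regions of one tumour, 0.25 log2 units. RTS0112654 was more abundant, from 8.41 in tumour 214 over 10.77 to 12.04 in tumour 502. The highest level in the block was that of RTS0113443, with 12.42 log2 CPM on average and a median of 1144 counts in a tumour region. Outside the list, the levels most like the mean of block 1 were those of RTS0113233 (r = 0.95) and RTS0113748 (r = 0.94), over 24 tumours. Of the 7 probes left out by name, RTS0112944 followed block 1 most closely, with r = 0.87. The block's level also went with sequencing depth: over 24 tumours its correlation with the log2 total count was 0.54 (Spearman 0.58), 0.48 on array 1 and 0.58 on array 2. Upper-quartile factors left this correlation at 0.495, while library size alone gave 0.06. Under the latter scaling the level ran against the share of counts in the 10 most abundant probes (r = -0.75, against -0.16 with TMM). The part of depth in the block was not tested.

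**Figure D2:**
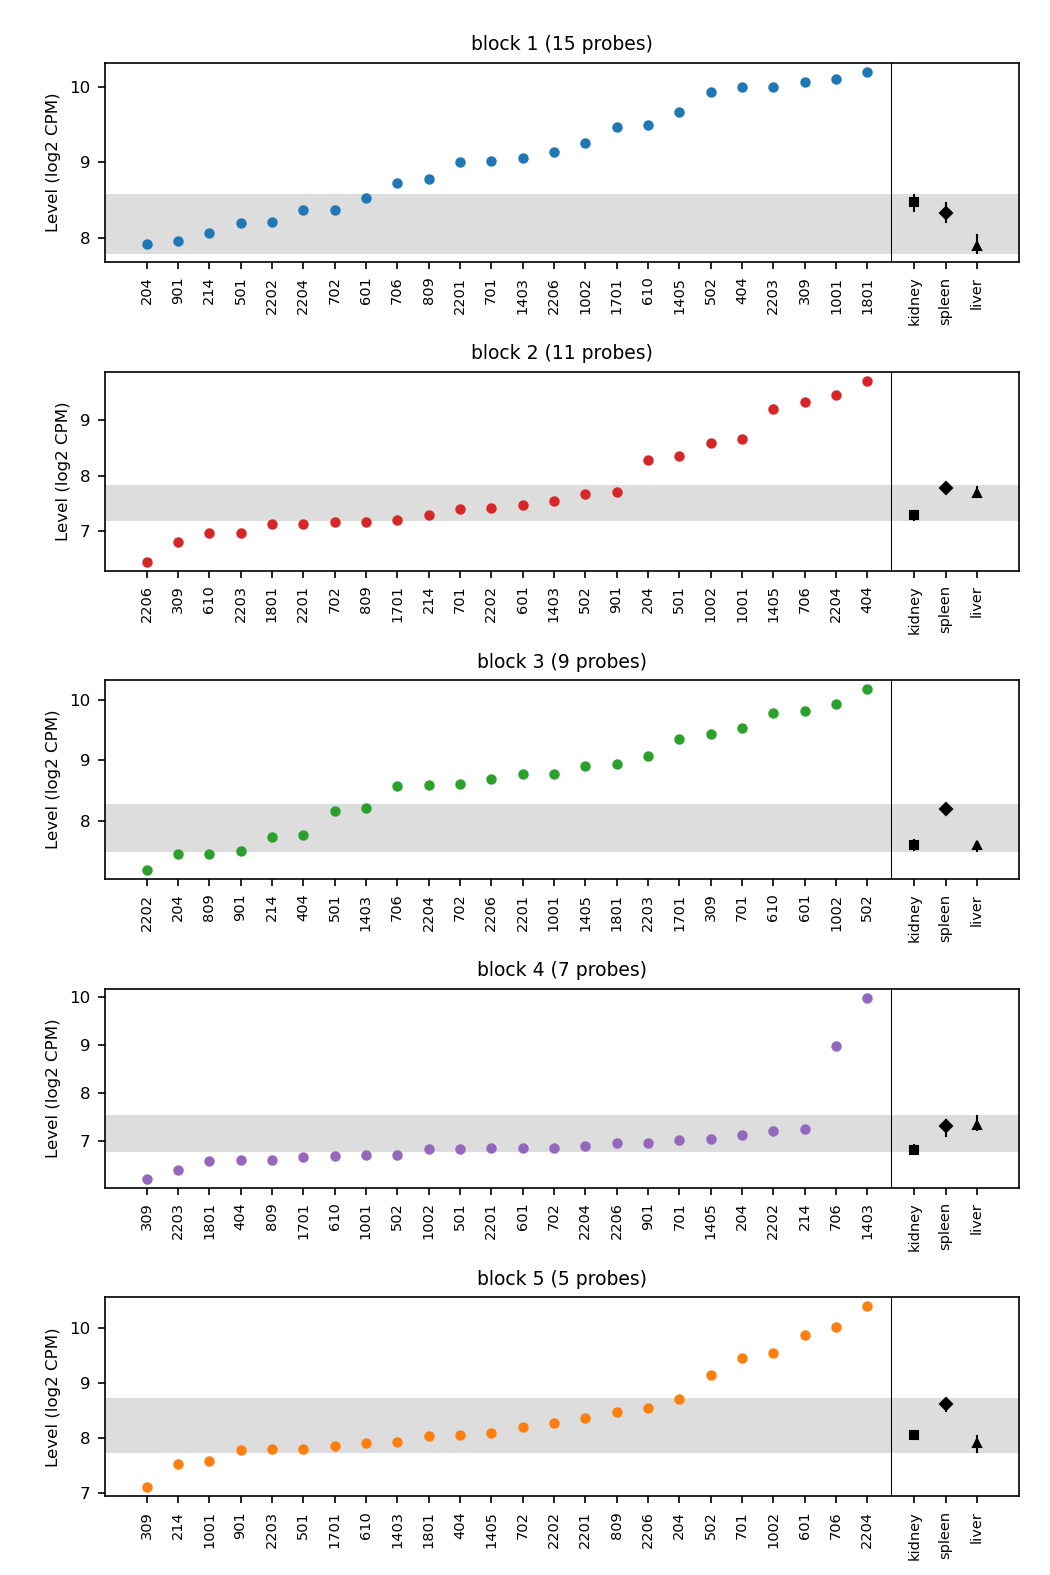
Level of each block (mean log2 CPM of its probes) in each of 24 tumours, sorted from low to high within a panel, and in the control tissues at the right (symbol for the mean, line for the lowest to the highest of 4 regions, grey band for the range over all 12 control regions). With TMM scaling, blocks 1 and 3 form gradual series, each with 16 tumours above the band, block 2 has 8 tumours above it, and in block 4 only tumours 706 (8.98) and 1403 (9.99) lie above the band.

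Block 2 held 11 probes. Its level ran from 6.45 in tumour 2206 over a median of 7.45 to 9.72 log2 CPM in tumour 404, with tumours 2204 (9.45), 706 (9.32) and 1405 (9.20) next. The control regions lay between 7.20 and 7.36 in kidney, 7.74 and 7.82 in spleen, and 7.62 and 7.80 in liver, and with TMM scaling 8 tumours were above all of them and 8 below all. That even split did not hold under other scalings, with 8 above and 12 below for upper-quartile factors and 4 and 16 for library size alone. The pairs of the block had a mean correlation of 0.75 ± 0.05 (jackknife SE, n = 24 tumours), and of 0.70 across arrays. Its level had a correlation of 0.12 with the log2 total count (Spearman -0.04).

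The central probes of block 2 were RTS0112798, described above, RTS0113199 and RTS0113759. RTS0113199 ran from 6.43 in tumour 309 over 7.79 to 10.07 log2 CPM in tumour 404, and RTS0113759 from 7.01 in tumour 214 over 7.96 to 10.06 in tumour 404. RTS0112798 and RTS0113199 were the most alike of all listed pairs, with r = 0.93 over 24 tumours and 0.87 across arrays. The outside probes closest to the block were RTS0112359 (r = 0.89) and RTS0113359 (r = 0.87). Both were highest in spleen among the tissues, at 9.25 and 8.91 log2 CPM, against 6.86 and 7.06 in kidney. Of the 11 probes of the block itself, liver had the highest tissue mean for 6, all 3 central ones among them, spleen for 4 and kidney for 1.

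Block 3 held 9 probes and ran from 7.19 in tumour 2202 over a median of 8.73 to 10.18 log2 CPM in tumour 502. Tumours 1002 (9.93), 601 (9.82) and 610 (9.78) followed, and tumours 204 and 809 (7.45 and 7.46) were low. Kidney regions lay between 7.52 and 7.69, spleen between 8.12 and 8.26 and liver between 7.50 and 7.66. With TMM scaling 16 tumours were above all control regions and 3 below, with library size alone 5 and 7. The mean pairwise correlation was 0.71 ± 0.05 (jackknife SE, n = 24 tumours), and 0.68 across arrays. Like block 1, it went with depth with TMM scaling (r = 0.45, Spearman 0.48, n = 24 tumours). Upper-quartile factors gave r = 0.36, and library size alone hardly any (r = 0.03). Under the latter scaling the correlation of block 3 with the share of the 10 most abundant probes was -0.76, against -0.34 with TMM. The part of depth was not tested.

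Central to block 3 were RTS0113389, RTS0112195 and RTS0112393. RTS0113389 ran from 7.17 in tumour 204 over 8.73 to 10.22 log2 CPM in tumour 1002. RTS0112393 ran from 4.99 in tumour 2202 over 8.23 to 10.27 in tumour 502, with a count of 0 on array 2 in tumour 2202. The nearest outside probes were RTS0112185 and RTS0112379, each with r = 0.91. They differed in the tissues: RTS0112185 read 9.10 log2 CPM in spleen and 6.78 in kidney, RTS0112379 10.24 in kidney and 6.73 in spleen. Of the probes left out by name, RTS0113072 followed the block (r = 0.91 over 24 tumours) and RTS0112273 ran against it (r = -0.69).

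Block 4 held 7 probes and rested on 2 tumours. Its level ran from 6.21 in tumour 309 over a median of 6.84 to 9.99 log2 CPM in tumour 1403 and 8.98 in tumour 706, and the third, tumour 214, was at 7.24. The 12 control regions lay between 6.78 and 7.51, and the means of tumours 1403 and 706 alone were above all of them. With TMM scaling 9 tumours were below all, with upper-quartile factors 18 and with library size alone 20. A single region of another tumour was also high: in tumour 2206 the regions read 6.36 and 8.21 on array 1, and 6.98 and 6.29 on array 2. In tumour 1403 the regions on arrays 1 and 2 read 10.93 and 9.05, and in tumour 706 they read 9.17 and 8.80. Without RTS0112470, which is described below, the other 6 probes read 11.70 and 8.22 in tumour 1403, and 9.59 and 9.30 in tumour 706. The mean pairwise correlation of 0.73 ± 0.25 (jackknife SE, n = 24 tumours) became 0.47 without tumour 1403, and it was 0.52 across arrays. Tumour 1403 had the lowest total of the tumours, with 35870 counts on array 1 and 37501 on array 2, and the part of depth was not tested. Tumour 706 had 356635 and 201296.

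The central probes of block 4 showed the same pair of tumours. RTS0112418 ran from 6.46 in tumour 2203 over 6.92 to 10.00 log2 CPM in tumour 1403 with 9.30 in tumour 706, and RTS0113469 from 5.73 in tumour 309 over 6.91 to 10.65 and 9.99 in those 2 tumours. RTS0113465 read 9.67 and 9.38 there, against a median of 6.73. RTS0112470, by contrast, joined the block through 1 region: in tumour 1403 it had 4 counts on array 1 (6.28 log2 CPM) and 955 on array 2 (14.01), and its mean of 10.15 stood 3.15 log2 units above the next tumour. The levels of this probe had a Pearson correlation of 0.17 between arrays, the lowest of the list. Those of RTS0112418, RTS0113469 and RTS0113465 had 0.50, 0.81 and 0.68 (Spearman 0.26, 0.51 and 0.68). The Spearman value of RTS0112418 was the lowest of the list, so its order of tumours also differed between arrays. The outside probes most like block 4, RTS0113077 (r = 0.90) and RTS0112981 (r = 0.87), were also highest in tumours 1403 and 706.

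Block 5 held 5 probes and ran from 7.11 in tumour 309 over a median of 8.15 to 10.40 log2 CPM in tumour 2204. Tumours 706 (10.03), 601 (9.88) and 1002 (9.55) followed, and with TMM scaling 7 tumours lay above all control regions and 3 below. Upper-quartile factors gave 5 above and 13 below, and library size alone 5 and 16, so the balance turned round. Kidney regions lay between 7.99 and 8.11, spleen between 8.50 and 8.72 and liver between 7.75 and 8.04. The mean pairwise correlation was 0.57 ± 0.11 (jackknife SE, n = 24 tumours), the lowest of the blocks, and 0.56 across arrays. Its centre was RTS0112900, followed by RTS0113803, which ran from 6.68 in tumour 309 over 7.78 to 9.46 log2 CPM in tumour 601, and RTS0112881, from 5.80 in tumour 309 over 7.11 to 9.56 in tumour 701. RTS0113051 and RTS0113671 were the most like it outside the list (r = 0.80 each), and RTS0113778 was the nearest of the probes left out by name (r = 0.70).

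Between blocks, the levels of blocks 1 and 3 had r = 0.56 over 24 tumours (Spearman 0.61, and 0.52 without the 2 tumours farthest from the median), the highest of the 10 pairs with TMM scaling. With upper-quartile factors it was 0.36, below the 0.39 of blocks 2 and 5. Blocks 2 and 5 had r = 0.38 (Spearman 0.31), sharing tumours 2204 and 706 among the highest. Blocks 1 and 4 had a Spearman correlation of -0.67 and a Pearson correlation of -0.27 with TMM, and the latter turned to 0.22 with library size alone. The scaling moved other pairs too: blocks 1 and 5 had r = -0.27 with TMM, -0.53 with upper-quartile factors and 0.20 with library size alone. A tumour's scaling factor enters every block in the same way, so the blocks share it.

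**Figure D3:**
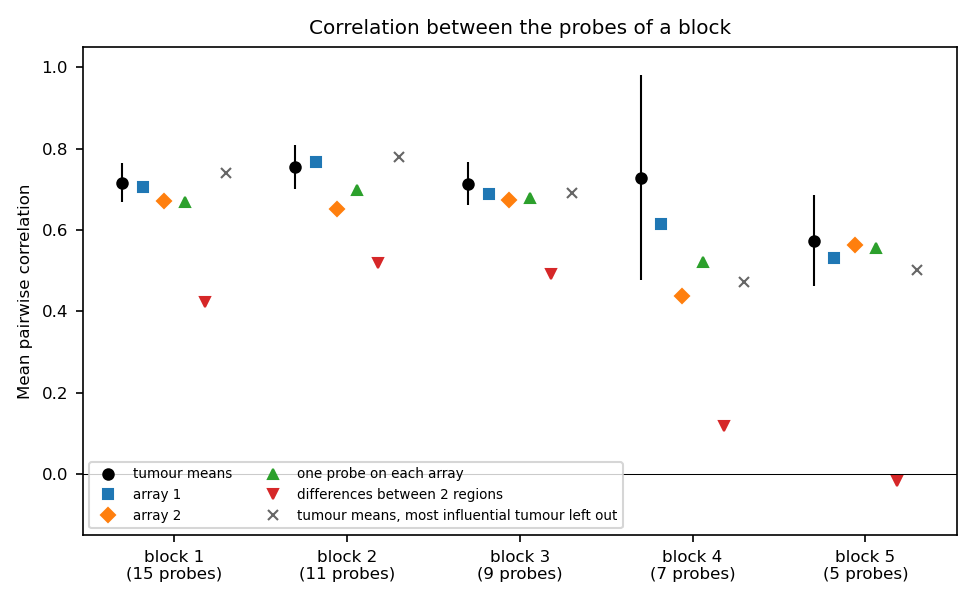
Mean correlation between pairs of probes within each block, from tumour means (24 tumours, bar for the jackknife SE), from each array alone, between a probe on array 1 and another on array 2, from differences between 2 regions of one tumour on one array (20 pairs of regions), and from tumour means without the tumour that moved the value most. The values from differences between regions are uncentred correlations (cosines), the others Pearson correlations. Blocks 1, 2 and 3 stayed at 0.65 or above on single arrays, block 4 came to 0.44 on array 2, and differences between regions gave 0.42, 0.52 and 0.49 in blocks 1 to 3 and -0.02 in block 5.

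Within tumours, 20 pairs of regions on the same array could be compared, from 10 tumours. The SD between such regions had a median of 0.63 log2 units over the list against 0.53 over all probes, and it was smaller than the SD over tumours in 87 of the 100 listed probes, against 891 of all 2010 (44.3%). The list was chosen for a high SD over tumours, so nothing is read from that count. Blocks 1, 2 and 3 also went together inside tumours. The mean uncentred correlations (cosines, without subtracting a mean) of the differences between regions were 0.42, 0.52 and 0.49 over the 20 pairs. For blocks 4 and 5 these were 0.12 and -0.02. An example of block 2 is tumour 1001, where one region of array 1 read 7.94 and the other 9.83 log2 CPM, and the regions of array 2 read 7.35 and 9.56. In tumour 1002 block 2 read 9.26 and 7.81 on array 1 and 9.46 and 7.85 on array 2. In block 1 the regions of these tumours differed less, with pairs of 9.93 and 10.13, and 9.10 and 9.38 on array 1.

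Block 3 differed most within tumour 2206, with 7.87 and 9.69 log2 CPM on array 1 and 9.82 and 7.36 on array 2. The higher region of array 2 there was also the tumour region of lowest total, with 17711 counts. Block 1 differed most in tumour 404, where the regions read 10.46 and 9.44 on array 1 and 10.72 and 9.35 on array 2. In the same regions block 2 read 10.33 and 9.32, and 10.45 and 8.77, so both blocks were higher in the same region on each array.

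The single probes of widest spread inside tumours were RTS0112195, RTS0112272 and RTS0113129. RTS0112195, of block 3, had 30 counts in one region of tumour 2206 on array 2 and none in the other, and on array 1 the regions of that tumour read 7.45 and 10.79 log2 CPM. RTS0112272 read 11.85 and 7.42 in the regions of tumour 2201 on array 2 (285 and 12 counts) and 11.46 and 7.27 on array 1 (795 and 58 counts). In tumour 404 it read 10.83 and 6.77 on array 2 and 10.99 and 7.86 on array 1. RTS0113129 read 12.86 and 9.38 in tumour 404 on array 2 and 12.53 and 9.90 on array 1. For RTS0112272 in tumours 2201 and 404, and for RTS0113129 in tumour 404, a large difference was thus seen on both arrays. The widest difference of RTS0113129 was not: in tumour 2206 it read 3.08 and 8.76 on array 2, from 0 and 14 counts, and 8.49 and 7.78 on array 1.

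**Figure D4:**
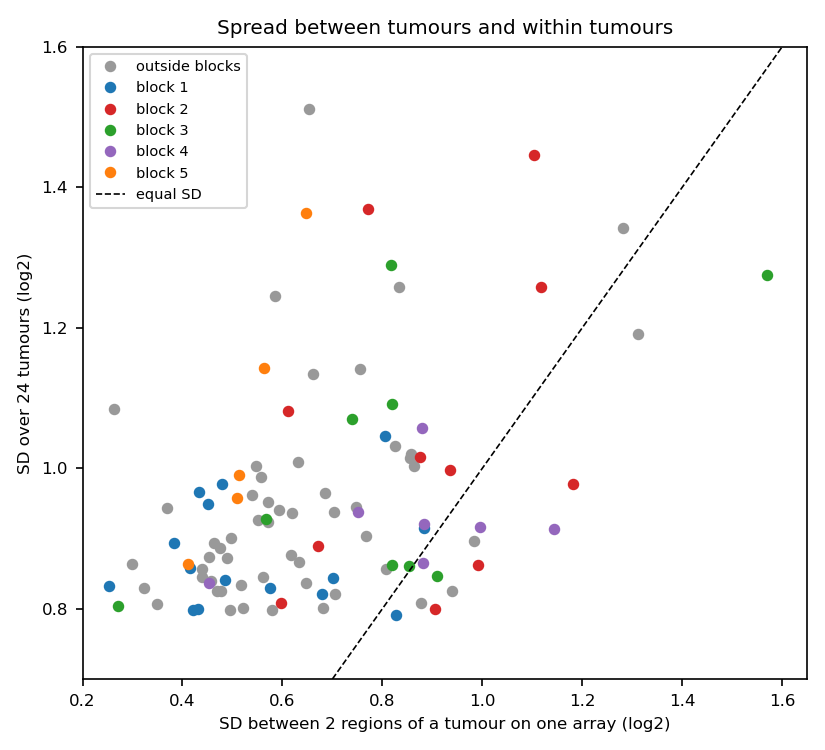
SD over 24 tumours against SD between 2 regions of a tumour on one array for each of the 100 probes, in log2 units, coloured by block, with a dashed line where both are equal. In all, 87 probes lie above the line, and RTS0112195 of block 3 lies farthest to the right, at 1.57.

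Outside the blocks, several small clusters and single probes marked other tumours. A cluster of 4 (RTS0112212, RTS0113763, RTS0112479 and RTS0112927) ran from 6.65 in tumour 1403 over a median of 8.10 to 9.75 log2 CPM in tumour 1701 and 9.71 in tumour 309. Their differences between regions of one tumour had a mean correlation of 0.61. A second (RTS0112272, RTS0112520, RTS0113639 and RTS0113472) reached 11.03 in tumour 309 and 9.12 in tumour 404 from a median of 7.92. The third (RTS0113789, RTS0113391, RTS0113096 and RTS0112526) reached 10.34 in tumour 1801 and 9.93 in tumour 1405 from a median of 8.41. For these other 2 clusters the correlation of differences between regions was 0.30 and 0.14. The 3 clusters were chosen for mention by their size, after their values were seen.

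In 17 probes the highest tumour stood at least 1 log2 unit above the second. This gap had a median of 0.42 log2 units over the list and 0.18 over all probes. The list was chosen for a high SD over tumours, so nothing is read from that count. Next to RTS0112470, the widest gaps were those of RTS0113799 and RTS0112223. RTS0113799 was at 12.66 log2 CPM in tumour 1001 and at 9.97 in the next, tumour 404, from a median of 8.98. RTS0112223 was at 11.02 in tumour 404 and at 8.47 in tumour 1403, from a median of 7.27. Unlike RTS0112470, both were high on each array, with correlations between arrays of 0.92 and 0.83 over 24 tumours. Neither belonged to a block.

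The choice averaged the arrays, so probes whose arrays go together were more likely to enter the list, and their likeness is given as a description. Over the list the Pearson correlation between arrays had a median of 0.89 over 24 tumours against 0.54 for all probes, and it exceeded 0.9 in 45 of 100 against 261 of 2010 (13.0%). The arrays carry the same tumours, and a wide spread over tumours raises such a correlation.

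A shift between arrays was not used by the choice. Array 2 was compared with array 1 within tumours, by edgeR's quasi-likelihood test on counts summed per tumour and array, with tumour as a block and Benjamini-Hochberg adjustment over all probes at 0.05. The p-values measure the spread between these samples only. Of the listed probes 20 passed, 18 higher and 2 lower on array 2. Of all 2010 probes 176 passed (8.76%), 154 higher (7.66%) and 22 lower (1.09%). Of the 1005 probes above the median level 164 passed (16.3%), and 82 of the 100 listed probes were among those 1005. The part of abundance in the share of the list was not tested. The log2 difference had a median of 0.09 over the list and 0.02 over all probes, and it ran from -0.40 to 0.56.

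The fitted differences of the named probes were small on average, with wide ranges over tumours. RTS0112654 read 10.39 log2 CPM on array 1 and 10.64 on array 2 on average, with differences per tumour from -0.25 to 0.86. It was higher on array 2 in 21 of 24 tumours, by 0.25 ± 0.04 (log2, SE, edgeR adjusted p = 0.000154). RTS0113176 read 10.31 and 10.63, with differences per tumour from -0.37 to 2.296, the last in tumour 1403. It was higher in 23 of 24 tumours and differed by 0.29 ± 0.05 (edgeR adjusted p = 0.000184). RTS0113443 read 12.33 and 12.51, with differences from -0.07 to 0.74, was higher in 23 of 24 and differed by 0.18 ± 0.03 (edgeR adjusted p = 0.000212). All 3 belong to block 1, of which 8 of 15 probes passed. The count was 3 of 9 in block 3, 2 of 5 in block 5 and none in blocks 2 and 4. Probes of a block go together and share each tumour's scaling factor, so these counts are not separate observations of a shift. With library size alone RTS0113443 did not pass, at 0.09 (edgeR adjusted p = 0.1003, with a range of 7.84e-09 to 0.997 over its 32 alternatives).

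Lower on array 2 were RTS0113243, at 7.43 and 7.04 log2 CPM, and RTS0112668, at 9.64 and 9.54. RTS0113243 differed by -0.32 ± 0.09 and was higher on array 2 in 5 of 24 tumours (edgeR adjusted p = 0.0229). Without tumour 1002 its difference was -0.21 and did not pass (edgeR adjusted p = 0.138, with a range of 0.00955 to 0.997 over its alternatives). RTS0112668 differed by -0.13 ± 0.04, was higher in 7 of 24 (edgeR adjusted p = 0.0474), and lost its call in 20 of 32 alternatives, over which the adjusted p ran from 0.00598 to 0.997. When tumour was not a block, all 5 missed the threshold (edgeR adjusted p = 0.997 for each).

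**Figure D5:**
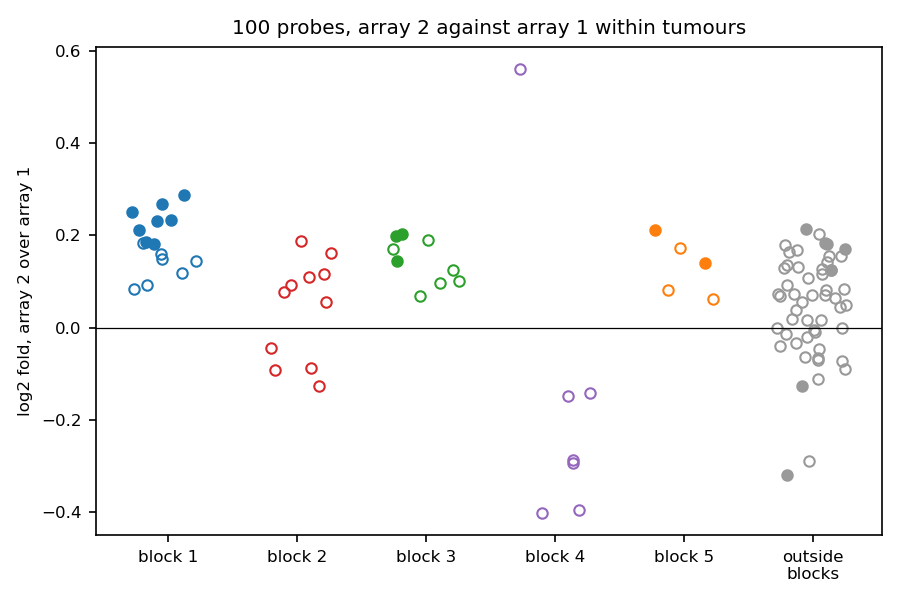
Fitted log2 fold of array 2 over array 1 within tumours for each of the 100 probes, by block, with filled points for the 20 probes that passed an edgeR adjusted p of 0.05 and open points for the others; the sideways position within a block carries no meaning. The highest filled point of block 1 lies at 0.29, and the point at 0.56 in block 4 is RTS0112470.

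To test differences between tumours on libraries that the choice had not used, the same rule was applied to array 1 alone. The 100 probes it gave were tested on the regions of array 2, which come from the same tumours. Of these 100, 83 were also on the list described here. On array 2 their SD over tumours had a median of 0.92 log2 units, against 0.93 on array 1 and 0.61 for all probes on array 2. It exceeded the median of all probes in 98 of 100. By edgeR's quasi-likelihood F test over 24 tumours, with the residual spread taken from the 10 tumours with 2 regions, 88 of the 100 differed between tumours at an adjusted p of 0.05, against 690 of 2009 probes tested (34.3%). Among the 1005 probes above the median level, where 78 of these 100 lie, 569 passed (56.6%). Chosen on array 2 and tested on array 1 in the same way, 72 of 100 passed, against 775 probes in all. The count was 76 with limma voom (542 in all) and 77 in the tumours with 2 regions on the array (631 in all). With library size alone nearly all probes passed, 1853 in all and 98 of the 100.

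The 83 probes that are also on the list described here had been chosen partly on array 2, and 80 of them passed, against 8 of the 17 others. For this reason no count is given by block. RTS0113646, RTS0112798 and RTS0112900, all chosen on array 1 too, had SDs of 1.53, 1.41 and 1.34 log2 units on array 1 and 1.53, 1.57 and 1.42 on array 2. The arrays carry the same tumours and may carry neighbouring pieces, so probes that varied widely on array 1 were likely to pass on array 2. The test is thus one on other libraries of these animals, not on other animals.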

How the data were processed

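Counts per probe in 81 libraries were used as deposited. Per the file headers, the GeoMx NGS Pipeline (version 2.3.4) produced them, with no normalization recorded; other steps are not given in the sources used here. No other per-sample column was set aside (0). Log2 CPM came from edgeR 4.0.16 with limma 3.58.1 in R 4.3.3 (TMM over 80 tissue regions, prior count 2). Both tests were edgeR quasi-likelihood fits on counts with filterByExpr and Benjamini-Hochberg adjustment, tested on simulated data; DESeq2 1.42.0 and limma voom were alternatives. Arrays were paired through the tumour numbers that the labels give on both. The members, blocks and alternatives were chosen with earlier results of these data known. Probes named are the 10 of highest SD, 3 central to each block, up to 3 called each way between arrays, the 2 on each side of the SD limit, the 3 highest and 3 lowest over the top tissue, 2 outside probes most like each block, the 3 widest gaps to the second tumour and the 3 widest spreads between regions. Others named were chosen after their values were seen. No background was subtracted, since negative control probes were not used here. Intervals and floors were not computed, and precision is given by the spread over tumours.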

Additional observations from a re-analysis of the deposited data

Results flagged for a closer look

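Within the 4 regions of a control tissue, 7 of 123 values examined had 1 region far from the other 3, by the ratio of its gap to the whole range, and chance alone gives such a ratio in about 1 in 20. The level of block 4 in kidney had a ratio of 0.904, with 1 region at 6.91 log2 CPM and the others between 6.78 and 6.79. For RTS0113646 in kidney the ratio was 0.922 (9.82 against 9.55 to 9.57), and for RTS0113803 in kidney 0.882 (8.84 against 8.65 to 8.67). RTS0113100 in kidney gave 0.841, with a low region at 6.38 against 6.86 to 6.95. In liver, RTS0112900 gave 0.926 (7.57 against 7.97 to 8.00) and RTS0112470 gave 0.848 (7.13 against 6.72 to 6.78). In spleen, RTS0112195 gave 0.905 (7.98 against 7.47 to 7.52).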

How the results depend on the processing

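The list itself depended on scaling and depth: 60 of its 100 probes were chosen again with library size alone, 58 on array 2 alone, 59 with all regions thinned to the lowest total, and 91 to 99 when a tumour was left out. Without the tumour region of lowest total, an alternative added after seeing the data, 98 were, with 174 probes and 19 listed ones called between arrays and 722 probes between tumours on array 2. The number of blocks was 3 on array 2 alone. Blocks 1 and 2 kept at least 12 of 15 and all 11 probes together under every setting tried, while block 4 kept 3 of 7 with Spearman correlation, block 5 kept 2 of 5 with a distance limit of 0.4 and block 3 kept 5 of 9 with complete linkage. With upper-quartile factors the mean correlation within block 1 was 0.60 and within block 3 0.65. With library size alone it was 0.82 in block 2, 0.78 in block 3 and 0.73 in block 5. On array 2 alone it was 0.65 in block 2 and 0.44 in block 4, and across arrays 0.70 in block 2. Differences between regions gave 0.42, 0.52, 0.49, 0.12 and -0.018 in blocks 1 to 5, of which the last changed sign. Leaving out a tumour gave 0.70 to 0.74 in block 1, 0.73 to 0.78 in block 2, 0.69 to 0.73 in block 3, 0.47 to 0.75 in block 4 and 0.50 to 0.61 in block 5. Between arrays, 91 probes and 12 listed ones passed with upper-quartile factors, 95 and 8 with library size alone, and 51 and 11 in the tumours with 2 regions on each array. With no replicate block, that is without the pairing of arrays by tumour, 1 probe passed, RTS0112470 of the list (edgeR adjusted p = 0.0050). Leaving out a tumour gave 123 to 199 probes and 15 to 25 listed ones. Differences between tumours on array 2 were called for 1853 probes with library size alone, and for 497 to 740 when a tumour was left out, with 82 to 91 of the list chosen on array 1. The cause of these changes was not tested, except that subsets hold fewer samples. A count of 0 in some tumour region limits the low end of 19 listed probes.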

Other observations

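Probe identifiers that lie close together were more often in the same block. Of the 31 pairs of listed probes whose identifier numbers lie within 5 of each other, 7 were in the same block (22.6%), against 227 of all 4950 pairs (4.59%). These 7 pairs were RTS0113443 with RTS0113445 and RTS0113034 with RTS0113036 in block 1, RTS0113199 with RTS0113200 in block 2, RTS0112908 with RTS0112910 in block 3, and the 3 pairs among RTS0113465, RTS0113469 and RTS0113470 in block 4. Their correlations over 24 tumours ran from 0.69 to 0.90. Over all 2010 probes, 12.4% of the 2009 pairs of neighbours in identifier order had a correlation above 0.5, against 5.99% of all pairs. What the order of the identifiers follows was not tested.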
